A study of Mus musculus with 4 samples.

Results

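The genes described here are 39 interferon regulatory, interferon-stimulated and major histocompatibility complex (MHC) class I antigen processing genes in the eyes of light-exposed mice. They were chosen by name, with earlier results of these data known. All 39 listed names were found among the 22558 genes of the deposited expression table. All samples came from 6-week-old Abca4-/-Rdh8-/- mice, which lack the 2 genes that clear all-trans-retinal from photoreceptor outer segments, so the controls carry both deletions too and no mouse with intact genes was compared. The 4 groups were eyes with no light exposure (the control) and eyes taken 3 h, 24 h and 7 days after light exposure, each labelled as the eyes of 3 mice. The tissue label is whole eye, while the extraction protocol speaks of removed retinas. Triplicates are spoken of in the series design, but each condition has a single column of values, and nothing says whether these are a pool or a mean. The dose of light is not stated either. There is therefore no spread between animals, no test and no p-value anywhere below, and a difference between samples cannot be told apart from a difference between the mice that were used.

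Interferons are secreted proteins that cells release on sensing foreign or misplaced nucleic acid or other danger. Type I interferons bind a receptor whose kinases phosphorylate STAT proteins. STAT2 and IRF9 are subunits of ISGF3, the factor that binds the interferon-stimulated response element (ISRE) of antiviral genes. Interferon gamma acts at the gamma-activated site (GAS), and through IRF1 it turns on the MHC class I pathway: the immunoproteasome cuts peptides, TAP moves them into the endoplasmic reticulum, tapasin loads them, and a heavy chain with beta-2-microglobulin shows them at the cell surface. The healthy eye is known for low class I display and for immune privilege.

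Levels are given in FPKM, a fragment number corrected for the length of the gene and the size of the library. A change is a log2 ratio taken after adding 1 to both FPKM values, and a fold is the plain ratio of FPKM values. Genes were called higher or lower from a change of 0.5, and genes with a mean below 1 FPKM over the 4 samples were left out of counts and medians. That filter kept 38 of the 39 members and 14194 genes in all. Mx2, a dynamin-like antiviral GTPase, did not pass, with 0.890 FPKM without light and 0.343, 0.590 and 0.610 FPKM after 3 h, 24 h and 7 days.

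The samples differed in more than light. Summed FPKM was 626973 without light and 680305, 660426 and 672004 after 3 h, 24 h and 7 days. Depth, read from the smallest values of olfactory receptor genes, was about 0.957 times that of the control in the 3 h sample, 1.27 times in the 24 h sample and 1.89 times in the 7-day sample, so the 7-day values have the least counting error. The 11 rod markers summed to 13740 FPKM without light and 11886, 8646 and 9187 FPKM after 3 h, 24 h and 7 days. The 9 skeletal muscle markers summed to 1512, 1686, 997 and 1300 FPKM in the same order. A different mix of tissues and a different amount of RNA per cell cannot be told apart from these sums. Lens crystallin RNA was abundant throughout (Cryaa 23585 to 27439 FPKM). The 4 Y-linked genes summed to 18.5 FPKM at 7 days and to at most 0.0189 FPKM in the other 3 samples, so only the 7-day sample held a clear amount of male tissue. The sex of the mice is not given in the labels. Abca4 read 56.3, 40.6, 34.3 and 37.4 FPKM and Rdh8 10.5, 14.2, 11.9 and 11.02 FPKM from control to 7 days; a disrupted gene can still be transcribed and there is no intact sample beside them, so these values do not check the genotype.

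To show what lies in front of the genes that the comparisons turn on, 5 promoters are printed, each the 250 bases before the annotated transcription start, on the gene's own strand, from RefSeq on the GRCm38.p6 build. Capitals mark the ISRE core (GAAANNGAAA) in Stat2, Isg15 and Ifit1 and the GAS (TTCNNNGAA) in Irf8, found on either strand. The Irf9 stretch is chr14:55603735-55603984 (plus strand), Stat2 is chr10:128270248-128270497 (plus), Irf8 is chr8:120736108-120736357 (plus), Isg15 is chr4:156200819-156201068 (minus) and Ifit1 is chr19:34640639-34640888 (plus).
Irf9: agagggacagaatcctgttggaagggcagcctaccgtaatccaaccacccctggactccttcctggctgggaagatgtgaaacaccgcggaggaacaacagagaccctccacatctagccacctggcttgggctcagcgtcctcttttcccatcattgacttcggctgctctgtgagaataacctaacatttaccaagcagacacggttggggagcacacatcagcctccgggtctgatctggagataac
Stat2: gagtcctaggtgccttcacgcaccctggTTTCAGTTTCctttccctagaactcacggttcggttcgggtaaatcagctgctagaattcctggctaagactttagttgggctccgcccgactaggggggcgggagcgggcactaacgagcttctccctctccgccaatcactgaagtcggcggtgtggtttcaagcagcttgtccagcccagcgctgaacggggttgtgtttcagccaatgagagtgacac
Irf8: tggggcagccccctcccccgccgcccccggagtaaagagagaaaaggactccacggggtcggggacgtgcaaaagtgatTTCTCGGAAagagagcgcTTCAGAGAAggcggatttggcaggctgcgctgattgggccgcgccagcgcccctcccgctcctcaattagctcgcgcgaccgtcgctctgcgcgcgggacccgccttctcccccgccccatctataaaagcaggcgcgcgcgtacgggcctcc
Isg15: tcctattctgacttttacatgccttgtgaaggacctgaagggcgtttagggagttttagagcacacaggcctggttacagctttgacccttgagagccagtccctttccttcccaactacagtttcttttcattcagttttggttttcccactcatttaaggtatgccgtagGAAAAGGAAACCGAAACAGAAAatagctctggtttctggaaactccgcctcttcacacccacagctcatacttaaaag
Ifit1: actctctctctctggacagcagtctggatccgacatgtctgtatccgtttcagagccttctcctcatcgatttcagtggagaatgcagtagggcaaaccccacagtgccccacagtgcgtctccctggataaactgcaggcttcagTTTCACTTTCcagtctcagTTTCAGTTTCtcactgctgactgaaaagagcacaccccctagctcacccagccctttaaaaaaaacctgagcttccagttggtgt
Stat2 held 1 ISRE core, with its first base 222 bases upstream of the start and read on the other strand. Isg15 held 3 overlapping cores on its own strand, at 78, 72 and 66 bases upstream, and Ifit1 held 2 on the other strand, at 104 and 85 bases. Irf8 has 2 annotated starts. The window printed held 2 GAS matches, at 171 and 153 bases upstream, and the window of the other start held neither motif. Irf9 has 2 annotated starts too, and neither of its windows held either motif. Isg15 and Ifit1 were chosen as textbook ISRE genes and Irf9, Stat2 and Irf8 as the members that passed the 0.5 step, so the 5 are examples and not a sample of the group.

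Windows of 300 bases (250 before the start and 50 after it) were found for 35 of the 39 members. Mx2, Parp14, Tap2 and Usp18 had no entry. The ISRE core was present in 17 of the 35 (48.6%), against 3.99% of the 27025 genes with a window. The 17 were B2m, Bst2, Ddx58, Gbp2, Gbp3, Ifih1, Ifit1, Ifit3, Ifitm2, Ifitm3, Igtp, Irf2, Irgm1, Isg15, Oas1a, Rsad2 and Stat2. The GAS was present in 9 of the 35 (25.7%) against 9.55% of all genes, and those 9 were Bst2, Ifit2, Ifitm3, Igtp, Irf1, Irf2, Irf8, Oas1a and Psmb8. In Bst2 and Ifitm3 an ISRE match and a GAS match share bases. The windows of Psmb9 and Tap1, which are transcribed away from each other on chromosome 17, share 275 bases. The members were chosen by name as genes of the interferon and class I pathways. Such genes are known for these sites, so the higher shares come with the choice and are not a finding about light. A match is a run of letters and says nothing on whether a factor sat there. A window with no match says only that these letters are not in it.

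At 24 h the 17 members with an ISRE core had a median log2 change of 0.16 against the control, with Stat2 the 1 gene past 0.5, and the 18 without one had a median of 0.26, with Irf8 and Irf9 past 0.5. The 9 members with a GAS had a median of 0.26, with Irf8 past 0.5, and the 26 without had a median of 0.16. From 3 h to 24 h the order was the other way, with medians of 0.14 with an ISRE core and 0.12 without one, and no difference between these medians was tested.

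**Figure D1:**
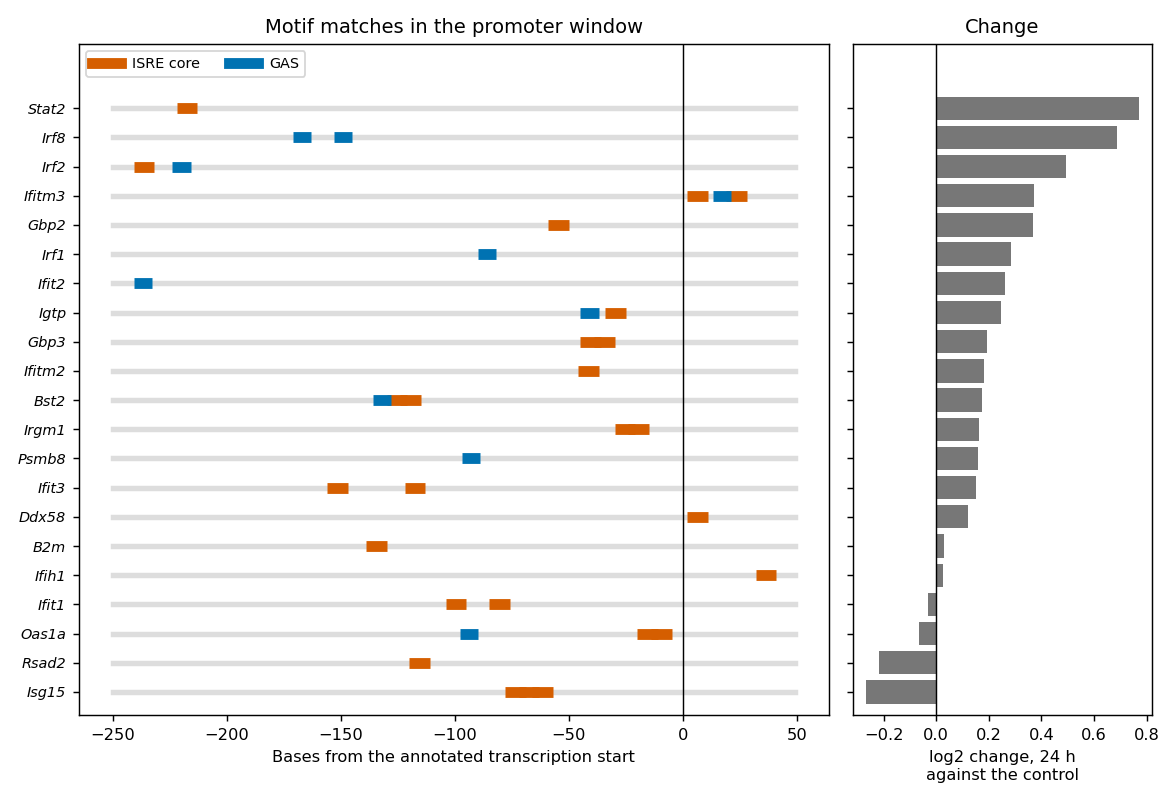
Positions of ISRE core and GAS matches (left, bases from the annotated transcription start, which is 0, in windows from 250 bases before to 50 after it) for the members with a match, ordered by their change at 24 h (right, log2 of (FPKM + 1) over the control). Stat2, at the top, has 1 match far upstream and a change of 0.77, while Isg15, at the bottom, has 3 overlapping matches close to the start and a change of -0.27.

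Across the group, light exposure was followed by few changes of 0.5 or more. At 3 h none of the 38 members was past 0.5 in either direction, against 2.56% of all genes higher and 1.44% lower. At 24 h 3 members were higher, namely Irf9, Stat2 and Irf8 (7.89% of the 38, against 2.71% of all genes), and none was lower (2.94% of all genes). A change of at least 1 was reached by Irf9 alone, against 0.747% of all genes. At 7 days Irf8 was the 1 member higher (2.63%, against 1.19% of all genes) and none was lower (0.986% of all genes). The shares of higher members at 24 h and 7 days were above those of all genes. But these shares rest on 0 to 3 genes, and no difference from the background was tested.

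The median change of the members against the control was 0.07, 0.17 and 0.05 after 3 h, 24 h and 7 days, beside 0.02, 0.01 and 0.00 for all genes. At 24 h 29 of the 38 were above 0 (76.3%, against 51.3% of all genes), at 3 h 25 (65.8%, against 54.1%) and at 7 days 23 (60.5%, against 50.7%). Each sample was also rescaled to the same sum outside lens, muscle, surface epithelium and small RNA genes. The member medians then became -0.021, 0.11 and -0.0051 in order of time, so their sign at 3 h and 7 days depends on the scaling. The medians of all genes moved along, to -0.067, -0.045 and -0.051. The member median minus that of all genes was 0.046, 0.159 and 0.046 after rescaling, against 0.050, 0.164 and 0.046 before it. Taking all 4 samples, 20 of the 38 members had their highest value at 24 h (52.6%, against 24.7% of all genes) and 2 their lowest there (5.26%, against 24.01%), while 16 had their lowest value in the control (42.1%, against 26.9%). The 39 members together made up 0.188% of the summed FPKM without light and 0.191%, 0.201% and 0.185% after 3 h, 24 h and 7 days.

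The comparisons between light samples do not use the control. From 3 h to 24 h the median member change was 0.12, with Irf9, Stat2, Irf8 and Psmb10 higher (10.5% of the 38, against 1.92% of all genes) and none lower (3.09% of all genes). From 24 h to 7 days the median was -0.15, 30 of the 38 were below 0 (78.9%, against 51.4% of all genes), Irf9, Stat2 and Irf7 were lower (7.89%, against 1.97% of all genes) and none was higher (1.66% of all genes). Both comparisons contain the 24 h sample, so the same values stand behind both.

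**Figure D2:**
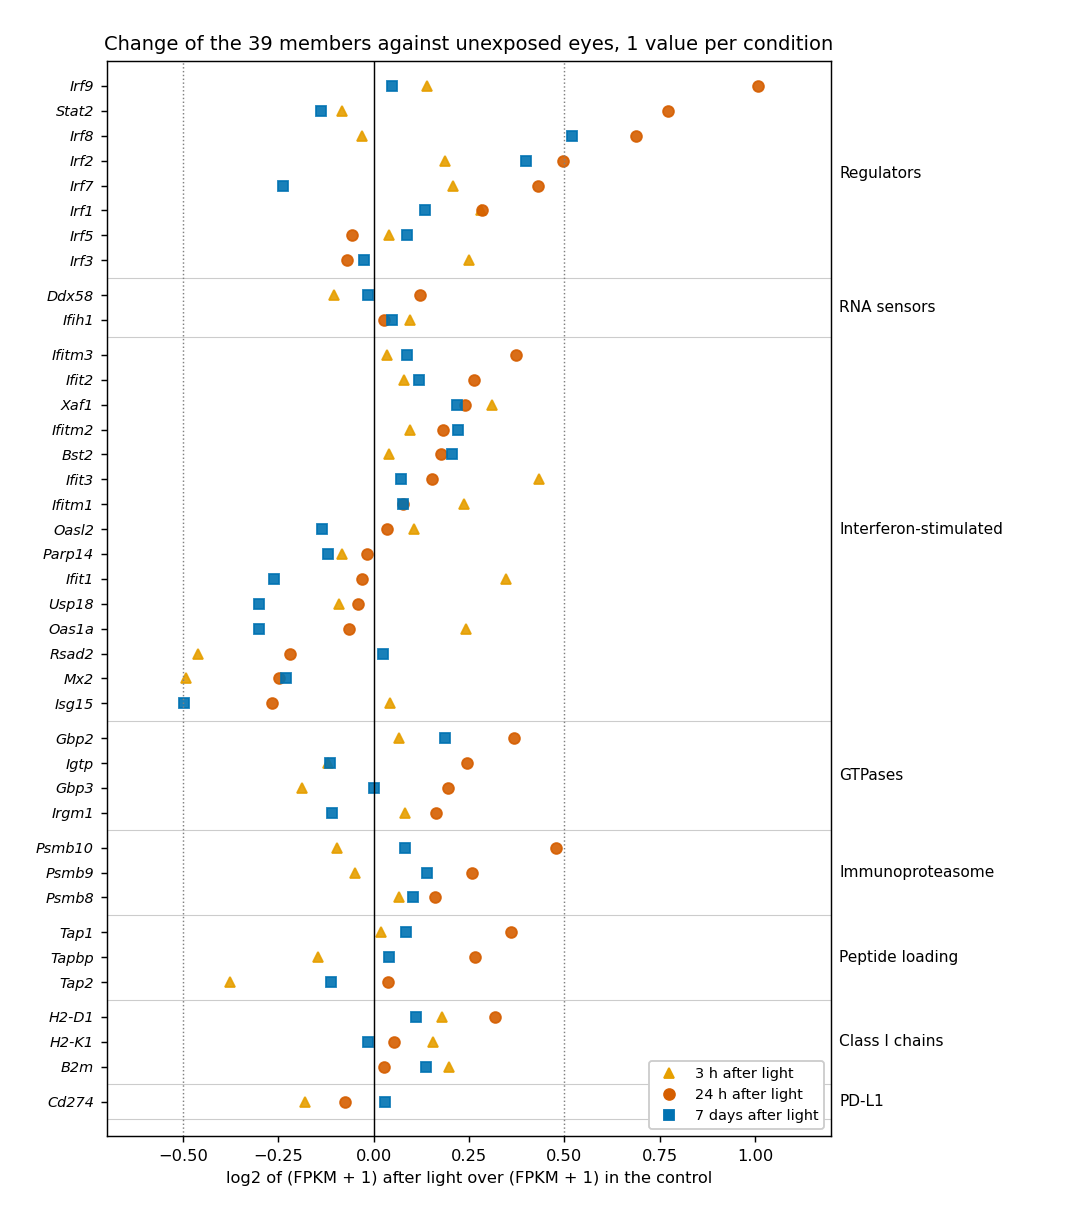
Log2 change of (FPKM + 1) against the control for each of the 39 members (rows, grouped by role and ordered by the 24 h value) at 3 h (triangles), 24 h (circles) and 7 days (squares), with 1 value per condition and dotted lines at -0.5 and 0.5. The 24 h circles of Irf9, Stat2 and Irf8 and the 7-day square of Irf8 lie to the right of the upper line among the 38 members past the filter. Mx2, below the filter, is drawn too.

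Among the regulators, Irf9 and Stat2 carried the clearest 24 h values. Irf9, the DNA-binding subunit of ISGF3, read 13.6 FPKM without light and 15.1, 28.3 and 14.1 FPKM after 3 h, 24 h and 7 days. The 24 h sample stood alone, 2.08 times the control, with a 95% interval of 1.91 to 2.27 that covers counting error only and rests on about 714 and 1893 fragments. Its log2 changes after 3 h, 24 h and 7 days were 0.14, 1.01 and 0.05, and the step from 24 h to 7 days was -0.96. Rescaled to the same sum outside lens, muscle, surface epithelium and small RNA genes, the 24 h change was 0.95. Of the 14194 genes Irf9 ranked 106th from the highest at 24 h.

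Stat2, the ISGF3 subunit that brings the transactivation domain, read 8.38 FPKM without light and 7.86, 15.0 and 7.53 FPKM after 3 h, 24 h and 7 days. Again the 24 h value stood above 3 similar ones, 1.79 times the control (counting interval 1.65 to 1.95), a log2 change of 0.77. At 3 h and 7 days Stat2 was slightly below the control, by changes of -0.08 and -0.14. In the annotation the span of Stat2 overlaps Apof, an apolipoprotein gene, but Apof stayed at or below 0.155 FPKM in all samples. The ratio of Irf9 to Stat2 was 162% without light and 192%, 189% and 187% after 3 h, 24 h and 7 days, so the levels of both stayed in nearly 1 proportion after light.

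A 24 h value at least 0.5 above each of the other 3 samples was found for 2 of the 38 members, Irf9 and Stat2 (5.26%), and for 1.04% of all genes. Among 105 further genes of the pathway that passed the filter it was found for 1, Cxcl10 (0.952%).

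**Figure D3:**
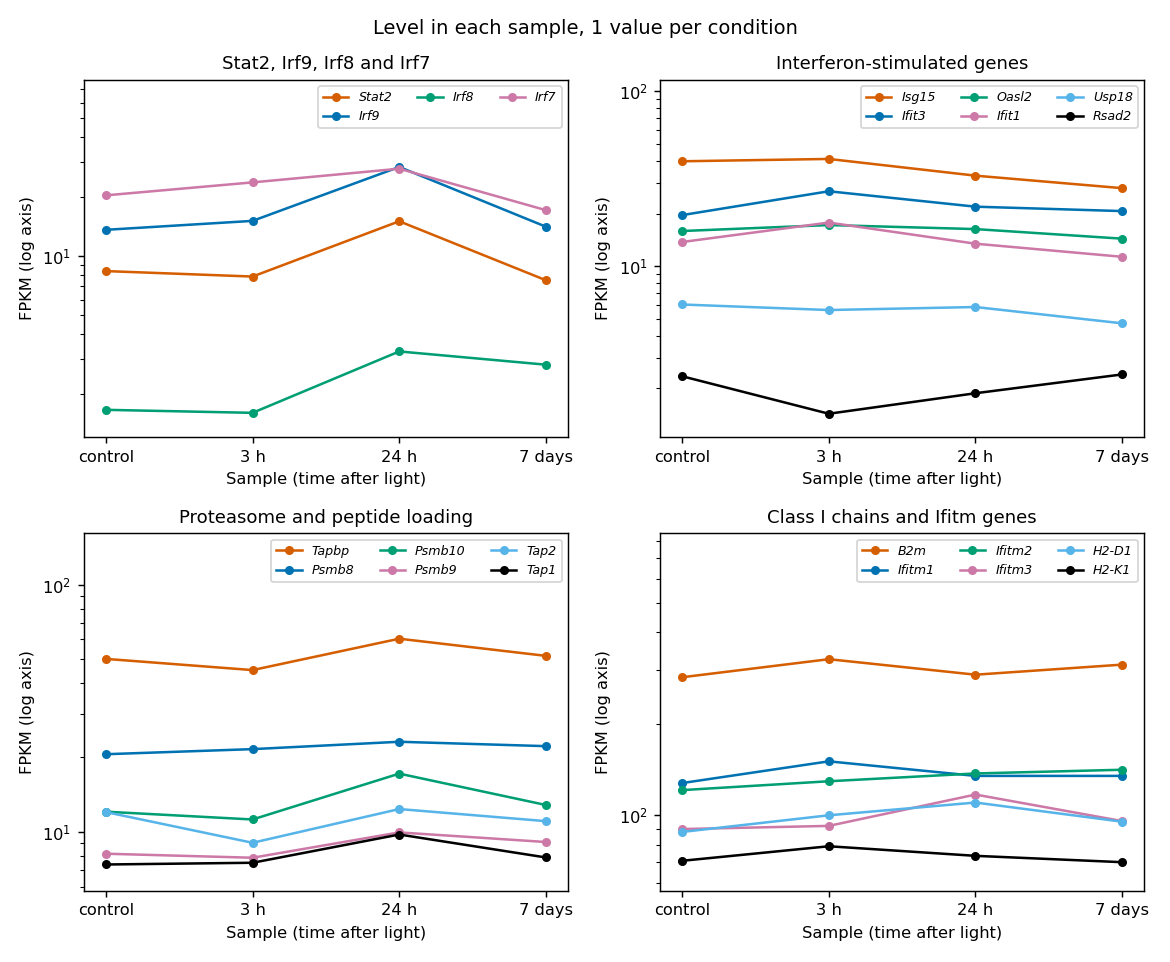
FPKM (log axis) in the control and 3 h, 24 h and 7 days after light, 1 value per condition, for Stat2, Irf9, Irf8 and Irf7, for 6 interferon-stimulated genes, for proteasome and peptide-loading genes, and for class I chains and Ifitm genes. Irf9 goes from 13.6 in the control to 28.3 at 24 h and 14.1 at 7 days, while Isg15 goes from 39.8 to 32.9 and 27.9.

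Irf8, a factor of the myeloid lineage that microglia and macrophages express, had the other values past 0.5. It read 1.66 FPKM without light and 1.60, 3.28 and 2.81 FPKM after 3 h, 24 h and 7 days. The 2 late samples were both above the 2 early ones, at 1.98 times the control at 24 h (counting interval 1.54 to 2.54) and 1.69 times at 7 days (1.33 to 2.16). On the log2 scale the changes were 0.69 and 0.52, on about 91, 84, 228 and 291 fragments from control to 7 days. With the rescaling described above the 7-day value was 0.47, under the 0.5 step.

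The 15 microglia and macrophage markers, none of them at 0 in any sample, summed to 163 FPKM without light and 180.2, 177 and 351 FPKM after 3 h, 24 h and 7 days. Of these 15, 11 were at least 0.5 above the control at 7 days and 1 was at 24 h. So at 24 h Irf8 was higher while the marker sum was close to that at 3 h, and at 7 days both were higher. Of 7 neutrophil markers, 2 of them at 0 in at least 1 sample, the sum was 4.01, 4.99, 7.52 and 10.8 FPKM. Most of the 7-day sum was S100a8 and S100a9, with log2 changes against the control of 1.067 and 1.388. Csf3r was higher at 7 days too, by 0.525, while Camp changed by 0.163 and Ngp by -0.0448. Mpo and Elane were at or below 0.0487 FPKM in every sample, so the rise of the sum was not shared by all 7 markers. In whole-tissue RNA more cells of a type and more RNA per cell cannot be told apart, and the part of these cells in the Irf8 values was not tested.

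The other regulators moved less. Irf7, which drives the later wave of type I interferon, read 20.3 FPKM without light and 23.6, 27.7 and 17.1 FPKM after 3 h, 24 h and 7 days. Its highest value was at 24 h (log2 change 0.43) and its lowest at 7 days (-0.24), and the step between those 2 samples was -0.67, the only one of Irf7 past 0.5. Irf2, which competes with IRF1 for the same sites, read 4.09, 4.80, 6.17 and 5.71 FPKM from control to 7 days. All 3 light samples of Irf2 were above the control and the 24 h change of 0.495 lay just under the step.

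Irf1, the main activator of class I genes under interferon gamma, read 25.7 FPKM without light and 31.4, 31.5 and 28.3 FPKM after 3 h, 24 h and 7 days. Its changes of 0.28, 0.28 and 0.13 were all upward and all under 0.5. Irf3, which is activated mainly by phosphorylation, ranged from 17.8 to 22.5 FPKM with the highest value at 3 h. Irf5, a regulator of macrophage cytokines, ranged from 3.64 to 4.12 FPKM; its annotated span overlaps Tnpo3, which was at 19.0 to 20.3 FPKM. Without strand information the reads of overlapping genes cannot be told apart.

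The cytoplasmic RNA sensors were flat. Ddx58, which encodes RIG-I, read 5.99, 5.51, 6.61 and 5.92 FPKM from control to 7 days. Ifih1, which encodes MDA5, read 3.79, 4.12, 3.88 and 3.95 FPKM. The largest change of either gene against the control was 0.12, for Ddx58 at 24 h.

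None of the 14 antiviral effectors past the filter reached a change of 0.5 at any time. Against the control, 2.56%, 2.71% and 1.19% of all genes were higher and 1.44%, 2.94% and 0.986% lower after 3 h, 24 h and 7 days. So 0 of 14 is near that background. The effector medians against the control were 0.09, 0.06 and 0.05 in order of time. Isg15, the ubiquitin-like protein that is attached to other proteins after interferon, read 39.8 FPKM without light and 41.1, 32.9 and 27.9 FPKM after 3 h, 24 h and 7 days. It was lower in both late samples, and its 7-day change of -0.496 lay just short of the step, at 0.70 times the control (counting interval 0.63 to 0.78), and passed it, at -0.56, with the rescaling. Usp18, which removes ISG15 and dampens the type I receptor, read 6.04, 5.61, 5.84 and 4.71 FPKM, lowest at 7 days. Oas1a, which makes the activator of RNase L, read 4.003, 4.91, 3.78 and 3.06 FPKM, highest at 3 h and lowest at 7 days.

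The Ifit genes encode proteins that bind foreign RNA ends. Ifit1 read 13.8 FPKM without light and 17.8, 13.4 and 11.3 FPKM after 3 h, 24 h and 7 days, so its highest value was at 3 h (log2 change 0.35) and its lowest at 7 days (-0.26). Ifit3 read 19.6, 26.8, 21.9 and 20.7 FPKM, and its 3 h change of 0.43 was the largest of any member at that time. Ifit2 was highest at 24 h instead, at 5.37, 5.74, 6.65 and 5.92 FPKM. Ifit1 and Ifit3 have near-identical copies, and the labels do not say how fragments were shared between copies.

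Rsad2, which encodes viperin, was the lowest effector past the filter, at 2.35 FPKM without light and 1.43, 1.88 and 2.404 FPKM after 3 h, 24 h and 7 days. Its 3 h change of -0.46 was the largest decrease at that time among the members past the filter, and it passed the step, at -0.68, with a pseudocount of 0.1 in place of 1. Oasl2, a relative of the Oas enzymes, stayed between 14.4 and 17.2 FPKM. Xaf1, a pro-apoptotic interferon target, was lowest in the control at 9.99 FPKM and 11.8 to 12.6 after light. Bst2, the tether that holds budding virus, ranged from 21.95 to 25.5 FPKM. Parp14, an ADP-ribosyltransferase, ranged from 3.69 to 4.10 FPKM.

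The Ifitm genes, whose membrane proteins block virus entry, were the most abundant effectors. Ifitm1 read 128 FPKM in the control and 151, 135 and 135 after 3 h, 24 h and 7 days. Ifitm2 read 121, 129, 137 and 141 FPKM in the same order. Ifitm3 read 90.2, 92.3, 117 and 95.8 FPKM, with the 24 h sample above the other 3 by a change of 0.37 against the control. All 3 are close copies of each other and could exchange fragments in the counting.

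The 4 interferon-inducible GTPase members, whose family attacks the vacuoles of intracellular microbes, had 24 h values above the control, all under the step. Gbp2 read 8.09, 8.53, 10.7 and 9.35 FPKM from control to 7 days, a 24 h change of 0.37. Igtp read 5.96, 5.405, 7.25 and 5.43 FPKM, a 24 h change of 0.25. All 4 genes, with Gbp3 and Irgm1, had their highest value at 24 h, with a median change of 0.22 against the control and of 0.33 against 3 h, and all 4 were below the 24 h value again at 7 days. The 6 further GTPases past the filter had a median 24 h change of 0.02, with 2 below 0, among them Ifi47 at -0.48.

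The immunoproteasome subunits replace the constitutive catalytic subunits of the proteasome. Psmb10 read 12.1 FPKM without light and 11.2, 17.2 and 12.8 FPKM after 3 h, 24 h and 7 days. The 24 h sample stood above the other 3, at 1.43 times the control (counting interval 1.25 to 1.63), a change of 0.48 against the control and of 0.57 against 3 h. Psmb9 read 8.15, 7.85, 9.94 and 9.09 FPKM, and Psmb8 20.6, 21.6, 23.1 and 22.2 FPKM, with 24 h changes of 0.26 and 0.16.

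Set against the constitutive subunit that each replaces, Psmb10 was 10.8% of Psmb7 without light and 9.61%, 14.9% and 11.7% after 3 h, 24 h and 7 days. Psmb9 was 8.81%, 7.54%, 9.59% and 9.36% of Psmb6, and Psmb8 23.1%, 23.8%, 22.98% and 24.5% of Psmb5. So the constitutive subunit was several times as abundant in every sample, and Psmb10 was the subunit whose share was highest at 24 h by more than a small margin. The 14 constitutive core subunits had a median 24 h change of 0.13 themselves, with 13 of them above 0 and none past 0.5.

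The peptide-loading genes had the same small maximum at 24 h. Tapbp, which encodes tapasin, read 50.03 FPKM without light and 45.1, 60.4 and 51.5 FPKM after 3 h, 24 h and 7 days, a 24 h change of 0.27. Tap1, the first subunit of the transporter, read 7.37, 7.49, 9.75 and 7.87 FPKM, a 24 h change of 0.36. Tap2, the other subunit, read 12.01, 9.02, 12.4 and 11.04 FPKM and differed from Tap1 in being lowest at 3 h, with a change of -0.38, and close to the control at 24 h. From 3 h to 24 h all 3 were higher by 0.34 to 0.41, and from 24 h to 7 days all 3 were lower by changes of -0.28 to -0.15.

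The class I molecules themselves stayed within a change of 0.32 of the control. B2m, the light chain and the most abundant member, read 285 FPKM without light and 326, 290.2 and 313 FPKM after 3 h, 24 h and 7 days. Its 24 h change of 0.03 became -0.03 with the rescaling described above, so it has no clear sign. H2-K1, a heavy chain, read 70.9, 79.2, 73.6 and 70.2 FPKM, with changes of at most 0.16. H2-D1, the other heavy chain, read 88.2, 100.1, 110.2 and 95.3 FPKM, highest at 24 h with a change of 0.32, or 0.26 after rescaling.

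H2-D1 was 31.0% of B2m without light and 30.7%, 38.0% and 30.4% after 3 h, 24 h and 7 days, so the 24 h sample stood apart from 3 close ones. H2-K1 was 24.9%, 24.3%, 25.4% and 22.4% of B2m, with no such step. Mice carry many near-identical class I genes, and the authors' counting could split fragments between H2-K1, H2-D1 and their relatives. The same holds for strain differences in class I sequence, on which the labels give nothing. Cd274, which encodes the checkpoint ligand PD-L1, read 7.41, 6.42, 6.98 and 7.58 FPKM, lowest at 3 h by a change of -0.18.

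**Figure D4:**
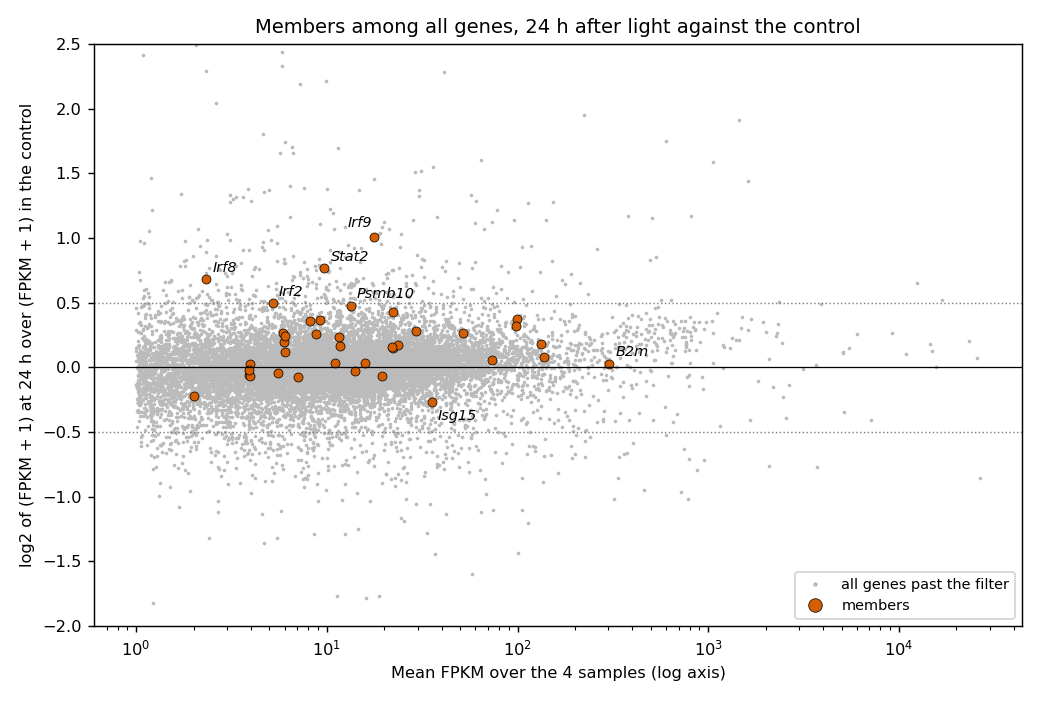
Log2 change of (FPKM + 1) at 24 h over the control (vertical) against mean FPKM over the 4 samples (horizontal, log axis) for all 14194 genes past the filter (grey) and the 38 members (orange), with dotted lines at -0.5 and 0.5; 47 genes lie beyond the plotted range. Irf9, Stat2 and Irf8 are above the upper line, and the other 35 members lie between the lines, most of them above 0.

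Upstream of these genes, no interferon was found at a level of 1 FPKM. Of 21 ligands listed, 19 were matched and all 19 were below 1 FPKM in every sample, the highest being Il28b, an interferon lambda, at 0.802 FPKM in the control. Ifnb1 read 0.221 FPKM without light and 0, 0.0672 and 0.191 FPKM after 3 h, 24 h and 7 days, and Ifng was above 0 at 24 h only, at 0.0235 FPKM, less than the 0.0350 FPKM that 1 fragment of an olfactory receptor gene is worth in that sample. The 8 ligands Ifne, Ifna2, Ifna4, Ifna5, Ifna7, Ifna9, Ifna11 and Ifna14 were listed at 0 in all 4 samples. Il28a, another interferon lambda, read 0.60 FPKM without light and 0, 0.788 and 0.771 FPKM after 3 h, 24 h and 7 days, and Il28b read 0.802 and then 0.149, 0.660 and 0.756 FPKM, so both were lowest in the 3 h sample. The 19 ligands summed to 1.897, 0.446, 1.85 and 1.97 FPKM from control to 7 days. None passed the filter, so no call was made on them.

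Receptors, kinases and their regulators, such as Socs1, Pias1 and Ptpn6, were present. Of the 11 such genes counted none was past 0.5 against the control, as were at most 2.94% of all genes in either direction. The receptor chain Ifnar1 ranged from 9.42 to 10.5 FPKM. Socs1, a feedback inhibitor of the receptor kinases, was not level, at 4.79, 3.30, 5.62 and 3.44 FPKM. Its changes against the control were -0.43, 0.19 and -0.38 in order of time. It was higher at 24 h than at 3 h by a change of 0.62 and lower at 7 days than at 24 h by a change of -0.58. Of 12 sensor and adaptor genes past the filter none passed 0.5 against the control, as did at most 2.94% of all genes in either direction. The one with the largest 24 h increase was Myd88, the adaptor of Toll-like receptors, at 7.08, 7.12, 10.3 and 8.28 FPKM.

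Among 41 further interferon-stimulated genes past the filter the median change was -0.03, -0.06 and -0.10 in order of time. At 24 h 1 of the 41 was higher, the chemokine gene Cxcl10, and 1 was lower, Ifi44, against 2.71% and 2.94% of all genes. Cxcl10 read 0.642 FPKM without light and 0.740, 2.197 and 0.801 FPKM after 3 h, 24 h and 7 days, a change of 0.96 on low values. At 7 days none of the 41 was higher and 5 were lower, against 1.19% and 0.986% of all genes. The 5 were Ifi27l2a, Oas2, Isg20, Apol9a and Oasl1. Ifi27l2a read 69.1, 102.9, 57.6 and 37.4 FPKM, highest at 3 h (0.57) and lowest at 7 days (-0.87). The pathway genes outside the 39 that are named were chosen after their values were seen.

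Of 18 further genes on a broad class I list past the filter, none passed 0.5 at 24 h, against 2.71% of all genes higher and 2.94% lower. Their 24 h median was 0.12, and 14 of the 18 were above 0. The list is wider than class I molecules and includes Calr, Canx, Pdia3, Fcgrt and H2-Ke6, the last of which is not a class I gene. The 24 h changes of these were -0.0041, 0.0934, 0.1408, 0.0164 and 0.1224. Nlrc5, the transactivator of class I promoters, read 1.13 FPKM without light and 1.196, 2.003 and 1.34 FPKM after 3 h, 24 h and 7 days, a 24 h change of 0.497 that lay just under the step. H2-Q6 was the 1 gene past 0.5, at 3 h, with 1.03, 1.95, 1.21 and 0.895 FPKM. Of the 105 pathway genes as a whole, counted once each, 1 was higher and 1 lower at 24 h and 0 were higher and 6 lower at 7 days (the 5 above and Ifi47, a GTPase), against the 2.71%, 2.94%, 1.19% and 0.986% of all genes given above.

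Markers of lymphocytes were near 0. All 9 T cell markers, all 8 natural killer cell markers and all 6 B cell markers were below 1 FPKM in every sample, with Lck at 0.636, Eomes at 0.935 and Cd79b at 0.438 FPKM as the highest of each list. The T cell markers summed to 2.03 FPKM without light and 1.78, 2.02 and 2.07 FPKM after 3 h, 24 h and 7 days. The 9 endothelial markers, whose cells are known for high class I expression, summed to 104 FPKM without light and 74.1, 94.0 and 105 FPKM after 3 h, 24 h and 7 days. At 24 h 8 of the 9 were below the control, with a median change of -0.28. The 1 above it was Kdr, at 21.7, 12.9, 31.0 and 29.0 FPKM from control to 7 days, which weighs on the sum. The part of these cells in the class I values was not tested.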

How the data were processed

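RNA of 4 groups, labelled as whole eye, was measured, with 1 deposited column each. The authors deposited FPKM values, made with bcl2fastq 1.8.3, TopHat2 (version 2) and Cuffdiff 2.2.1 on the mm9 build, per the submitters' processing notes. RNA was taken with a spin-column kit and libraries with a TruSeq RNA kit, per the labels' protocols, with no word on strand. From these values log2 changes were computed with Python 3.11.15, pandas 2.3.3 and numpy 2.4.6, after adding a pseudocount of 1, which understates the change of low genes. The filter was a mean of at least 1 FPKM. With 1 value per group no test was possible. The calculation was tested on simulated data.

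The members and the gene lists were chosen with earlier results of these data known. Named one by one were members past 0.5 against the control with a mean of at least 1 FPKM, plus Irf9, Stat2, B2m, H2-K1 and H2-D1. Further pathway genes were given by counts. The rule gave values for those past 1, and the others with printed values were picked after their values were seen. A gene of the lists as first written is not reported here. The other members' levels were added for completeness. Fragment numbers were approximated from the smallest olfactory receptor values (16, 14, 17 and 20 genes from control to 7 days) and GENCODE transcript lengths. Fold intervals are exact Clopper-Pearson intervals at 95% (scipy 1.17.1) and cover counting error only. Promoter windows came from RefSeq on GRCm38.p6, a later build than mm9, and served for sequences only. Changes were recomputed with 0.1 in place of 1 as pseudocount, without the filter or with one of 5 FPKM, after 2 rescalings, and without members that have near-identical copies.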

Additional observations from a re-analysis of the deposited data

Results flagged for a closer look

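Ifit1 moved in opposite directions at 2 times, with a log2 change against the control of 0.347 at 3 h and of -0.2604 at 7 days. Both values share the control sample, and the difference between them was not tested.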

How the results depend on the processing

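Of the medians and counts recomputed under the alternatives, 139 stayed close to the value reported (medians within 0.1, counts within 1.5 times), 9 moved further and 2 changed sign. With a pseudocount of 0.1, 1 member was at least 0.5 lower at 3 h (Rsad2), 5 were at least 0.5 higher at 24 h (Irf2, Irf8, Irf9, Stat2 and Psmb10), 1 was at least 0.5 lower at 7 days (Isg15), and 1 was at least 1 lower from 24 h to 7 days. That alternative weighs low values more by its construction. With a mean of at least 5 FPKM, 0 members were at least 0.5 higher at 7 days, because Irf8 was no longer included. With rescaling to the same sum outside lens, muscle, surface epithelium and small RNA genes, which shifted the changes by -0.09, -0.06 and -0.06 at 3 h, 24 h and 7 days, the median became -0.02116 at 3 h and -0.005129 at 7 days, 1 member was at least 0.5 lower at 3 h (Rsad2), 0 were at least 1 higher at 24 h, and at 7 days 0 were at least 0.5 higher and 1 was at least 0.5 lower (Isg15). Irf9, Stat2 and Irf8 were past 0.5 at 24 h under every alternative that included them. No paired analysis was possible because each group has 1 value. The spread between mice is unknown, and for members such as Usp18 at 3 h (0.93 times the control, counting interval 0.77 to 1.13), counting error alone covers no change.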

Other observations

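Outside the interferon genes, 3 genes looked up after the values were seen also had their highest value at 24 h. Stat3, a cytokine-activated transcription factor, read 20.4 FPKM without light and 23.3, 54.2 and 23.9 FPKM after 3 h, 24 h and 7 days. Socs3, its feedback inhibitor, read 4.13 FPKM and then 7.50, 22.8 and 5.12 FPKM. Gfap, a marker of reactive Müller glia, read 18.3 FPKM and then 15.5, 93.03 and 36.8 FPKM, still 2.01 times the control at 7 days. Of the 8 Müller glia markers listed, Gfap among them, 4 were above and 4 below the control at 24 h. Their median 24 h change was 0.04, and the lowest was Glul at -0.96. Next to Irf9 in the annotation lie Psme1 and Psme2, which encode proteasome activator subunits, and Rnf31. Psme1 read 48.4, 49.5, 57.7 and 55.04 FPKM and Psme2 47.5, 53.6, 61.6 and 56.6 FPKM from control to 7 days, with a smaller 24 h step than Irf9.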
